A study of Mus musculus with 6 samples.

Results

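All 39 genes whose symbol is Hox, a cluster letter and a number were taken from a table of 27179 genes measured by RNA sequencing. The samples were primary smooth muscle cells of the mouse aorta in 6 libraries, 3 labelled Bmal1 KO and 3 labelled WT. Bmal1, listed here as Arntl, encodes the partner of CLOCK in the circadian clock. Both groups had spent 7 days in a medium called diabetic, with glucose at 4.5 g/L and hydrogen peroxide at 0.3 mM, on a base medium with 10% serum. The labels also give 10% CO2 for all 6 libraries. No allele, deleted exon, Cre driver, sex, age, number of animals or stretch of aorta is given in the labels, and nothing there says that the 3 libraries of a group came from separate cultures or animals. The p-values therefore measure the spread between these libraries, which may be technical. An exact permutation test of 3 against 3 libraries cannot give a two-sided p below 0.1, so genes were called only from a fit across all genes.

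Hox genes encode homeodomain transcription factors that give cells their position along the head-to-tail axis of the embryo. They lie in 4 clusters, HoxA to HoxD, and their order within a cluster follows the order in which they are switched on, from the 3′ end (low paralog numbers, anterior) to the 5′ end (high paralog numbers, posterior). Genes with the same number in different clusters are paralogs, descended from a single ancestral gene. Adult vascular smooth muscle cells keep part of the Hox code they were given in the embryo, and the code differs along the aorta. Polycomb complexes hold inactive parts of a cluster silent, trithorax-type methyltransferases keep active parts open, and PBX, MEIS and PKNOX proteins bind DNA together with HOX proteins.

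Arntl itself had 1036, 941 and 1036 normalized counts in libraries 1, 2 and 3 with the Bmal1 KO label, against 529, 619 and 590.4 in WT libraries 1, 2 and 3. The targeted gene was thus higher in the libraries labelled KO (log2 difference 0.79, SE 0.09, adjusted p = 0.000135), and a count over a whole gene can include exons outside a deletion, so it does not check the labels. The libraries are called KO-labelled for that reason. Xist, the RNA of the inactive X chromosome, averaged 3867 ± 23.1 in KO-labelled libraries and 58.7 ± 40.8 in WT libraries (SD, n = 3 each), and all 4 Y-linked genes on the list were lower in KO-labelled libraries, so genotype label and sex-linked expression cannot be told apart here. All 6 smooth muscle markers were higher in KO-labelled libraries, with a summed count of 99811 to 108140, against 28537 to 32638 in WT libraries. Of 4 markers each, 3 endothelial genes were higher and 1 was not called, 3 macrophage genes were higher and 1 lower, 3 Schwann and neural genes were higher and 1 was not tested, 2 fibroblast genes were higher and 2 lower, and 1 mesothelial gene was higher and 3 lower. These counts stand beside 36.2% called higher and 34.9% called lower over all 16086 tested genes. Summed counts in KO-labelled against WT libraries were 449.6 to 639 against 104 to 237 for 4 endothelial genes, 1099.5 to 1185 against 555 to 662 for 4 macrophage genes and 4011 to 4239.6 against 1012 to 1619.7 for 4 Schwann and neural genes. They were 13265 to 14251 against 10788 to 12391 for 4 fibroblast genes and 5711 to 6256 against 3264 to 4341 for 4 mesothelial genes. No gene of these lists was at 0 throughout. The mesothelial sum was higher through Msln alone, with a mean of 4525 in KO-labelled libraries and 356 in WT libraries, while Upk3b, Wt1 and Krt19 were lower. Most fibroblast counts were Pdgfra (means 12442 and 10681), and most Schwann and neural counts were Tubb3 (3126 and 1148). The part of these cells in the Hox values was not tested. In bulk RNA, fewer cells of a type and less RNA per cell cannot be told apart.

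The homeobox of Hoxa5, the Hox gene with the most counts per kb of transcript in KO-labelled libraries, is shown as the stretch by which paralogs are compared. It is the 180 coding bases of the 60-residue DNA-binding domain, 5′ to 3′ on the coding strand. Capitals mark the stretch coding the residues WFQNRR of the helix that lies in the major groove of DNA.
Hoxa5: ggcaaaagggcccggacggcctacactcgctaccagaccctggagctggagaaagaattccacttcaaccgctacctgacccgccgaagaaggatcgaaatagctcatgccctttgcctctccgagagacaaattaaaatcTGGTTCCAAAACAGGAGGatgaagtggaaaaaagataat
The homeobox of Hoxa5 shared 83.9% of bases with Hoxb5 and 76.7% with Hoxc5, and Hoxb5 and Hoxc5 shared 75%. A homeobox was found in all 39 genes. Over all 42 same-number pairs the identity had a median of 80.6% and a range of 67.2% to 93.9%. The longest identical stretch between the longest transcripts of any pair of members was 52 bases, between Hoxa6 and Hoxb4, though other transcripts of Hoxc5 and Hoxc10, and of Hoxd3 and Hoxd4, share exon bases.

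Of the 39 genes, 25 passed the filter of at least 10 normalized counts in at least 3 libraries, 11 had some reads but fewer, and 3 had none in any library. The silent genes were Hoxb1, Hoxd1 and Hoxd13, with 0 of 228953577 reads; a count of 0 over a group allows up to 3 reads, or a mean of 1.11 normalized counts per library in libraries labelled KO and 0.887 in WT libraries. Among the 25 tested genes, 9 were higher and 7 lower in KO-labelled than in WT libraries and 9 were not called (limma, adjusted p under 0.05 over all 16086 tested genes). These shares, 36% and 28%, stand beside a background of 36.2% of all tested genes called higher and 34.9% called lower, 71.1% in all. The members' share, 64% in all, is near the background and is no result about Hox genes as a set. The 3 KO-labelled libraries lay wholly above the WT libraries for 10 of the 25 (background 38.5%) and wholly below for 7 (background 38.2%). Changes of at least 2-fold were called upward for 6 genes (background 20.6%) and downward for 5 (background 13%), beside 33.6% of all tested genes in either direction. The median log2 difference was 0.17 over the 25 and -0.01 over all tested genes.

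**Figure D1:**
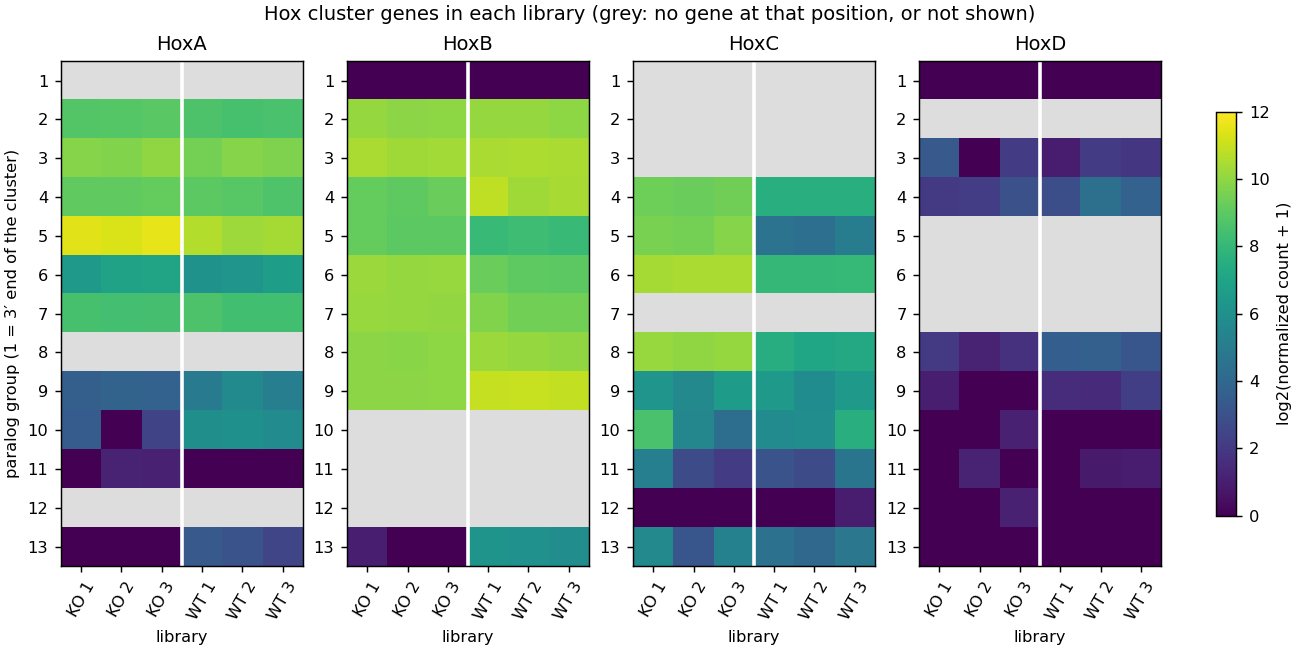
Heat map of log2(normalized count + 1) for Hox cluster genes, with paralog groups down the page, and columns for the 3 KO-labelled libraries left of the 3 WT libraries in each cluster; grey marks positions with no gene or not shown. HoxC groups 4 to 8 are brighter in every KO-labelled library, Hoxa10 and Hoxb13 are darker, and HoxD is dark in all 6.

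The called genes were counted by position along the clusters. In groups 4 to 8, in the middle of the clusters, 13 of 15 genes were tested, 8 were higher and 2 lower. In groups 9 to 13, at the 5′ end, 7 of 16 were tested, 0 were higher and 4 lower. Of these, Hoxa10 and Hoxb13 passed the filter only through WT libraries, where they were high, so their place in that count partly follows from the filter. In groups 1 to 3, at the 3′ end, 5 of 8 were tested and 3 were not called. These are counts over few genes, and of all tested genes 36.2% were called higher and 34.9% lower. Summed over members, groups 4 to 8 held 12088, 11543 and 12356 counts in KO-labelled libraries, against 7904, 6608 and 6697 in WT libraries, a ratio of 1.70. Most of that difference lay in Hoxc4, Hoxc5, Hoxc6 and Hoxc8. Their means were 647, 794, 1391 and 1074 in KO-labelled libraries, against 190, 25.0, 255 and 154 in WT libraries. Groups 9 to 13 held 1517, 1085 and 1190.3 in KO-labelled libraries, against 2320.4, 2372 and 2379.8 in WT libraries, a ratio of 0.536. Most of these counts were Hoxb9, with a mean of 977 in KO-labelled libraries and 1975 in WT libraries, so that ratio mostly follows Hoxb9. For groups 1 to 3 the sums overlapped, at 4011, 3701 and 3948 in KO-labelled libraries, against 3889.6, 4063 and 3830.4 in WT libraries. Whether these 3 stretches differ from each other was not tested.

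**Figure D2:**
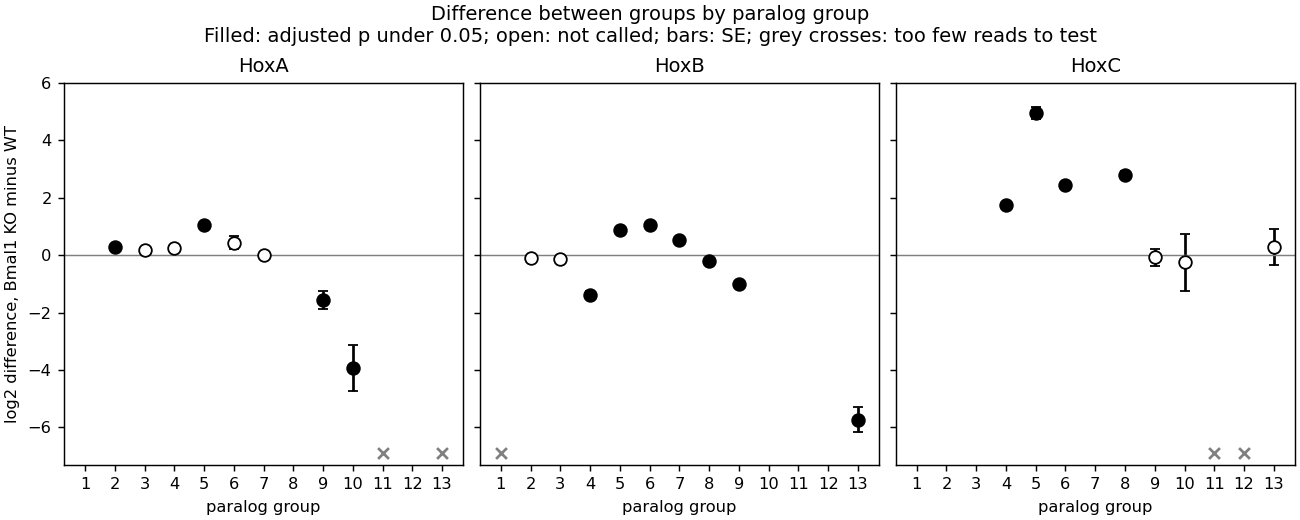
Log2 difference, KO-labelled minus WT, with its SE, against paralog group for the genes shown in HoxA, HoxB and HoxC; filled points have an adjusted p under 0.05, open points do not, and grey crosses mark genes with too few reads. Values run up to 4.96 at Hoxc5 and down to -5.73 at Hoxb13, and no filled point above 0 lies beyond group 8.

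The largest change of a whole cluster was in HoxC (chr15:102921131-103036856). Its 9 genes summed to 4405, 3903 and 4211 normalized counts in KO-labelled libraries, against 815, 728 and 949.5 in WT libraries. That is a ratio of 5.02, which stayed between 4.73 and 5.41 when each library was left out. HoxC transcripts made up 24.3% ± 0.6 of all Hox counts in KO-labelled libraries and 6.24% ± 0.97 in WT libraries (SD, n = 3 each). HoxB made up 44.3% ± 0.97 in KO-labelled libraries and 65.2% ± 1.1 in WT libraries. The HoxB sum was 7883, 7329 and 7548 in KO-labelled libraries, against 9304, 8584 and 8261 in WT libraries, with no overlap. HoxA summed to 5311, 5091 and 5721 in KO-labelled libraries, against 3974, 3693 and 3668 in WT libraries, a ratio of 1.42. Most of that HoxA difference lay in Hoxa5, with a mean of 2796 in KO-labelled libraries and 1355.5 in WT libraries. All Hox genes together gave 17616, 16329 and 17494 in KO-labelled libraries, against 14114, 13043 and 12908 in WT libraries. The sums carry no p, and long transcripts weigh more in them.

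**Figure D3:**
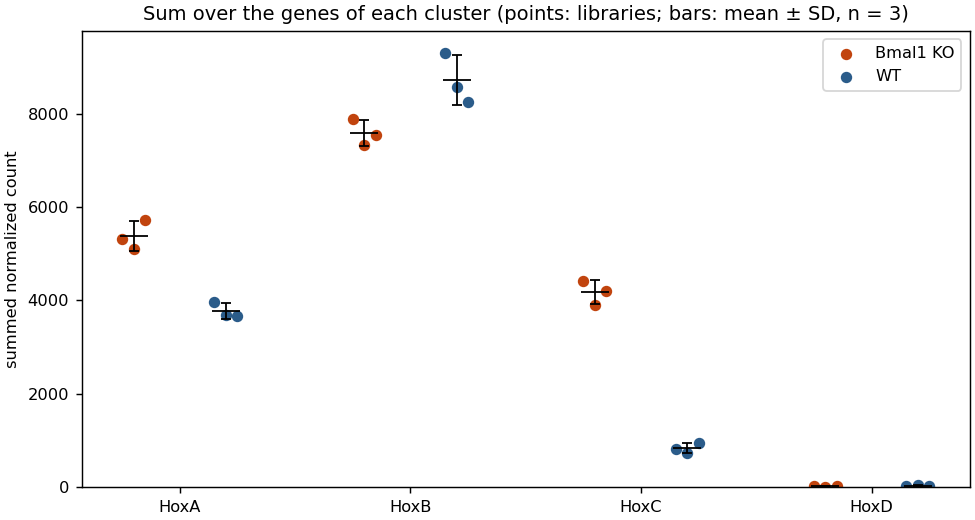
Summed normalized count of each cluster, with points for libraries, horizontal bars for means and error bars for SD (n = 3), KO-labelled left of WT. HoxC reads 3903 to 4405 in KO-labelled libraries and 728 to 949.5 in WT libraries, while HoxD is near 0 in both.

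Within HoxC, the 4 genes of groups 4 to 8 rose and none fell, beside 36.2% higher and 34.9% lower over all tested genes. Hoxc4, which in mouse B cells takes part in switching on the antibody-editing deaminase gene, had 657, 615 and 668 in KO-labelled libraries, against 191, 189.9 and 188 in WT libraries. It was 3.41-fold higher (log2 difference 1.76, SE 0.10, adjusted p = 2.76e-06). Hoxc5 had 763, 727 and 891 in KO-labelled libraries, against 22.9, 19.9 and 32.2 in WT libraries. The lowest KO-labelled value was thus far above the highest WT value, and the 31.7-fold rise was the largest of any tested Hox gene (log2 difference 4.96, SE 0.21, adjusted p = 6.16e-07). Hoxc5 and Hoxc10 share 166 exon bases on the same strand, 5.37% of the exons of Hoxc5, which reads there cannot separate. Hoxc6, a gene of the thoracic and forelimb region of the embryo, had 1332, 1438 and 1404 in KO-labelled libraries, against 254, 249.6 and 261 in WT libraries. The WT values lay close together, and the KO-labelled ones were 5.46-fold higher (log2 difference 2.44, SE 0.08, adjusted p = 2.02e-07). Hoxc8, needed in mouse for the pattern of the lower thoracic vertebrae and ribs, had 1121, 1014 and 1088 in KO-labelled libraries, against 179.8, 133 and 149 in WT libraries. The rise was 6.98-fold (log2 difference 2.81, SE 0.13, adjusted p = 1.11e-06).

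Of the 5′ genes of HoxC none was called. Hoxc9, which sets thoracic motor neuron identity, had 74.4, 49.2 and 99.4 in KO-labelled libraries, against 85.3, 56.4 and 88.4 in WT libraries. The groups overlapped and no difference was called (adjusted p = 0.838). Hoxc10, a gene of the lumbar and hindlimb region, had 373, 45.6 and 19.4 in KO-labelled libraries, against 54.1, 58.0 and 181 in WT libraries. KO-labelled library 1 and WT library 3 were high and the other 4 were not, and no difference between labels was called (adjusted p = 0.835). Without KO-labelled library 1 the log2 difference was -1.44 and still not called (adjusted p = 0.071). Hoxc11, its 5′ neighbour, had 35.7, 5.99 and 3.43 in KO-labelled libraries, against 7.34, 5.80 and 23.9 in WT libraries, from 43 and 41 reads. It was below the filter and showed the same pair of high libraries. Hoxc13, known for hair and nail formation, had 48.9, 8.39 and 37.7 in KO-labelled libraries, against 21.1, 15.8 and 25.8 in WT libraries. It was not called (adjusted p = 0.684), but without KO-labelled library 2 it was, at a log2 difference of 1.03 (adjusted p = 0.0372). Hoxc12 had 0 reads in KO-labelled libraries and 1 in WT libraries.

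A search over the 14910 genes with at least 10 counts in both KO-labelled library 1 and WT library 3 asked which others were at least 3 times as high in KO-labelled library 1 as in either other one and at least 2 times as high in WT library 3 as in either other one. The rule was set after Hoxc10 had been seen. Besides Hoxc10 and Hoxc11 it found 4, namely Pitx1, Agr2, Cd69 and 1 gene listed by number only. Pitx1, the transcription factor that specifies the hindlimb, had 486, 91.1 and 77.7 in KO-labelled libraries, against 97.2, 46.4 and 207 in WT libraries. A list of 5 B-lymphoid genes (Cd79a, Cd79b, Blnk, Rag1 and Il7r), also written after values had been seen, summed to 1775, 309 and 410.1 in KO-labelled libraries, against 289, 70.5 and 153 in WT libraries. It was highest in KO-labelled library 1, as was Hoxc10, but in WT its highest library was 1, not 3. Its part in the Hoxc10 values was not tested. Hoxc8 showed no such library, with 1074 ± 54.5 in KO-labelled libraries and 154 ± 23.9 in WT libraries (SD, n = 3 each).

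**Figure D4:**
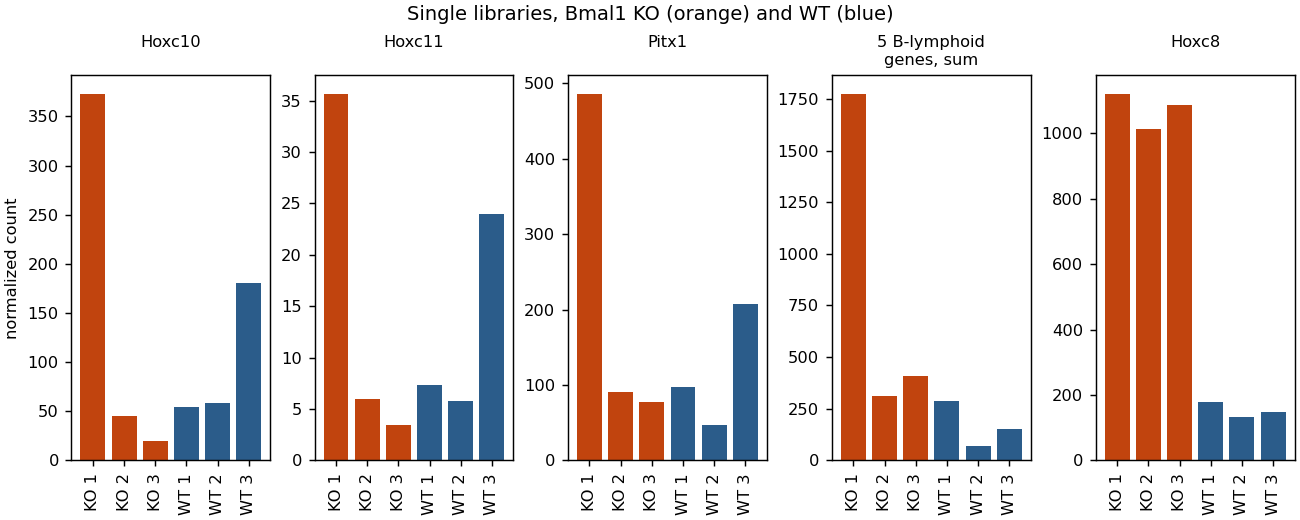
Normalized counts in single libraries for Hoxc10, Hoxc11, Pitx1, the sum of 5 B-lymphoid genes and Hoxc8, with KO-labelled libraries (orange) left of WT libraries (blue) and axes that start at 0. KO-labelled library 1 and WT library 3 stand out for Hoxc10 (373 and 181), whereas all 3 KO-labelled libraries are high for Hoxc8.

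In HoxB (chr11:96194316-96368254), 3 genes rose, 4 fell and 2 were not called, beside 36.2% higher and 34.9% lower over all tested genes. Hoxb2, which acts in hindbrain patterning, had 1085, 969 and 986 in KO-labelled libraries, against 1105, 1103 and 1005 in WT libraries. Hoxb3, its neighbour, had 1423, 1249 and 1287 in KO-labelled libraries, against 1432, 1463 and 1404 in WT libraries. Both overlapped between groups and neither was called (adjusted p = 0.39 and 0.168). Their values are uncertain, since 58.5% of the GENCODE exon bases of Hoxb2 and 52.9% of those of Hoxb3 overlap the antisense RNA Hoxb3os and the counting strand is not given in the sources used here. Hoxb4, which can expand blood stem cells when overexpressed, had 572, 519 and 603 in KO-labelled libraries, against 1826, 1268 and 1363 in WT libraries. It fell 2.63-fold (log2 difference -1.38, SE 0.14, adjusted p = 7.17e-05), between a gene that was not called and one that rose.

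The next 3 genes toward the 5′ end rose. Hoxb5, which acts in the formation of enteric neurons from neural crest, had 582, 511 and 500.4 in KO-labelled libraries, against 277, 313 and 283 in WT libraries, a ratio of 1.82 (log2 difference 0.86, SE 0.11, adjusted p = 0.00023). Hoxb6 had 1162, 1101 and 1117 in KO-labelled libraries, against 602, 525 and 496 in WT libraries. Its 2.08-fold rise was the largest among the Hox genes of the cluster (log2 difference 1.06, SE 0.09, adjusted p = 3.13e-05). Hoxb7, whose regulatory DNA is widely used to mark the ureteric bud, had 1118, 1085 and 1060.1 in KO-labelled libraries, against 857, 692 and 705 in WT libraries (1.45-fold, log2 difference 0.54, SE 0.10, adjusted p = 0.00155). For all 3 the groups did not overlap, as for 76.7% of all tested genes.

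The tested genes beyond group 7 were lower. Hoxb8, whose forced expression holds myeloid progenitors in an immature state, had 979, 935 and 984 in KO-labelled libraries, against 1157, 1109.5 and 1042 in WT libraries. The ratio of 0.876 was called (log2 difference -0.19, SE 0.07, adjusted p = 0.0456), but the call was lost without WT library 1 (adjusted p = 0.0676) or 2 (0.0939) and without KO-labelled library 1 (0.0907), 2 (0.144) or 3 (0.0903). Hoxb9, a thoracic gene, had 962, 960.4 and 1009.8 in KO-labelled libraries, against 1976, 2043 and 1905 in WT libraries. It fell 2.02-fold, with small spread in both groups (log2 difference -1.01, SE 0.06, adjusted p = 5.92e-06). Hoxb13, known for its role in the prostate and the tail end of the embryo, had 1.02, 0 and 0 in KO-labelled libraries, against 72.5, 67.2 and 58.9 in WT libraries. It fell to 1 read in all KO-labelled libraries, against 224 in WT libraries, a 178-fold lower rate with an exact 95% counting interval of 31.7 to 7070 (log2 difference -5.73, SE 0.44, adjusted p = 1.55e-05).

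Between Hoxb13 and Hoxb9, 2 loci were higher, and Gm11538, also there, had no read. Gm53, a long noncoding RNA at chr11:96251660-96264484, had 361, 326 and 348 in KO-labelled libraries, against 7.34, 10.8 and 2.76 in WT libraries. It was 49.6-fold higher (log2 difference 5.59, SE 0.40, adjusted p = 1.14e-05); it was singled out after its values had been seen. The locus of Mir196a-1 (chr11:96265164-96265265), which lies between Gm53 and Hoxb9, had 57.1, 48.0 and 51.4 in KO-labelled libraries, against 0.92, 0 and 4.60 in WT libraries. These were 141 reads against 6, a 29.5-fold higher rate with a counting interval of 13.2 to 81.9 (log2 difference 4.59, SE 0.62, adjusted p = 0.000343), and without WT library 3 the log2 difference was 5.26. Such mRNA libraries read the precursor transcript, so mature miRNA was not measured. Ttll6, a tubulin glutamylase gene and the nearest protein-coding gene of the table beyond Hoxb13, had 7.13, 18.0 and 10.3 in KO-labelled libraries, against 78.9, 85.4 and 74.6 in WT libraries (6.75-fold lower, log2 difference -2.74, SE 0.35, adjusted p = 0.00024). Along the chromosome, 2 genes that fell were thus followed by 2 loci that rose and then by Hoxb9, which fell.

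**Figure D5:**
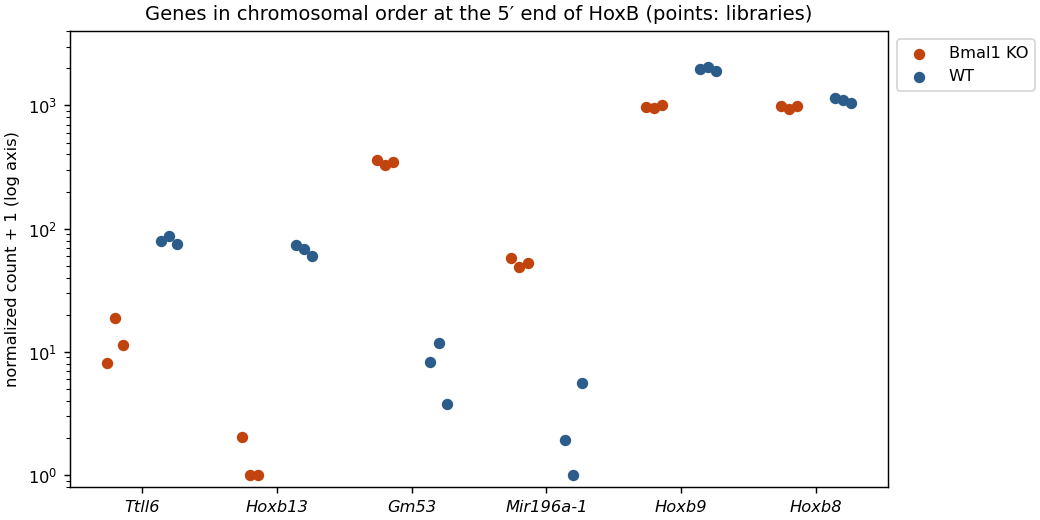
Normalized count + 1 on a log axis for 6 neighbouring genes in chromosomal order at the 5′ end of HoxB, with a point for each library and KO-labelled left of WT. Ttll6 and Hoxb13 are lower, Gm53 and Mir196a-1 higher and Hoxb9 about 2-fold lower in all 3 KO-labelled libraries.

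Mature miR-196a and miR-196b are shown because they are made from loci inside the clusters and are known to pair with Hox mRNAs, Hoxb8 among them. The sequences are from RefSeq (GRCm38.p6), 5′ to 3′, with the seed (bases 2 to 8) in capitals.
miR-196a: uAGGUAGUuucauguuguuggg
miR-196b: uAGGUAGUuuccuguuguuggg
Both have the same seed. The DNA letters that pair with it, ACTACCT, were searched on the sense strand of the 3′ untranslated region of 1 GENCODE transcript per gene. They stood in 9 of the 39 Hox genes, at 13 places, beside 6.10% of 21028 genes overall. Sites of Hoxc8 and Hoxb7, which were higher in KO-labelled libraries, and of Hoxa9, which was lower, follow as DNA with the seed match in capitals.
Hoxc8 site 1: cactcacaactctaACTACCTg
Hoxc8 site 2: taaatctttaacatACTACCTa
Hoxb7: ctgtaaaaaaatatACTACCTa
Hoxa9: caaaaggaaagaaaACTACCTt
Other members with the letters were Hoxa5 and Hoxb6, which were higher, Hoxa4 and Hoxa7, which were not called, and the silent Hoxb1. Hoxa7 held 4 of the 13 places. A match is a description of letters and no evidence of pairing, and the 7 letters were not in the window of Hoxb8.

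HoxA (chr6:52155367-52260880) was mixed, with 2 genes higher, 3 lower and 4 not called, beside the same 36.2% higher and 34.9% lower. Hoxa2, which gives the second branchial arch its identity, had 446, 463 and 490.1 in KO-labelled libraries, against 394, 364 and 375 in WT libraries. The ratio of 1.23 was called (log2 difference 0.30, SE 0.09, adjusted p = 0.0204), but not without WT library 2 (adjusted p = 0.0535) or 3 (0.0529) or KO-labelled library 2 (0.057) or 3 (0.0759). Hoxa3, needed in mouse for the thymus and parathyroid, had 893, 843 and 1025 in KO-labelled libraries, against 713, 909 and 827 in WT libraries, which overlapped (adjusted p = 0.206). Hoxa4 had 539, 536 and 564 in KO-labelled libraries, against 495, 478 and 407 in WT libraries. The groups did not overlap, yet it missed the threshold (adjusted p = 0.0587), and it passed without WT library 1 (adjusted p = 0.0288). Opposite-strand transcripts overlap GENCODE exon bases of Hoxa3 (Hoxaas2 12.25%, Gm29430 10.64%, 5730596B20Rik 7.11%) and of Hoxa4 (Gm29430 16%). With the counting strand not given, the values of both are uncertain to that extent.

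Hoxa5, known in mouse for the development of the lung and airways, had 2810.5, 2593 and 2985 in KO-labelled libraries, against 1551, 1195 and 1321 in WT libraries. It was 2.06-fold higher, with every KO-labelled library above every WT library (log2 difference 1.05, SE 0.10, adjusted p = 6.35e-05). Per kilobase of transcript it was the most abundant Hox gene in KO-labelled libraries, at 1489.8 counts per kb, against 722 in WT libraries, where it ranked 2nd. Hoxa6 had 86.6, 119.9 and 126 in KO-labelled libraries, against 68.8, 76.3 and 100.4 in WT libraries, which overlapped (adjusted p = 0.122). Hoxa7 had 359.7, 344 and 356 in KO-labelled libraries, against 405, 327 and 329 in WT libraries. Its means were nearly the same (ratio 0.999, adjusted p = 0.965), and 20.4% of its exon bases in the GENCODE annotation overlap the antisense RNA Hoxaas3.

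Of the 5′ genes of HoxA, the 2 that were tested fell. Hoxa9, which with Meis1 drives leukaemia when overexpressed, had 11.2, 13.2 and 12.6 in KO-labelled libraries, against 31.2, 52.2 and 34.1 in WT libraries. It was 3.18-fold lower (log2 difference -1.56, SE 0.31, adjusted p = 0.00249). Hoxa10, needed for the uterus to receive an embryo, had 10.2, 0 and 4.57 in KO-labelled libraries, against 61.4, 63.0 and 53.4 in WT libraries. These were 14 reads against 201, a 12.1-fold fall (log2 difference -3.92, SE 0.80, adjusted p = 0.00285), and the log2 difference was -4.67 without KO-labelled library 1 and -2.93 without library 2. Hoxa13, a gene of digits and the genital tract, had 0 reads in KO-labelled libraries and 9.17, 7.46 and 4.60 normalized counts, 24 reads in all, in WT libraries. Against a floor of 3 reads over the KO-labelled group its rate was 6.36-fold lower, with the counting error of the 24 WT reads left out. Hoxa11 had 2 reads in KO-labelled libraries and 0 in WT libraries, under that floor in both.

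HoxD (chr2:74668225-74765142) was nearly silent in these cells. None of its 9 genes reached the filter, 7 had some reads and 2 had none. The cluster summed to 16.3, 5.99 and 14.9 normalized counts in KO-labelled libraries, against 20.2, 38.1 and 28.6 in WT libraries. Hoxd4 had the most, with 12 reads in KO-labelled libraries and 46 in WT libraries. Its values, 3.06, 3.60 and 6.85 in KO-labelled libraries, against 6.42, 20.7 and 12.9 in WT libraries, overlapped. Hoxd8 had 3.06, 1.20 and 2.28 in KO-labelled libraries, against 11.0, 11.6 and 8.29 in WT libraries, from 6 reads against 35. Every KO-labelled value lay under every WT value, a 4.64-fold lower rate with a counting interval of 1.93 to 13.5. Hoxd9 had 1 read against 8 (6.36-fold lower, interval 0.853 to 282) and Hoxd3 12 against 8 (1.89-fold higher, interval 0.709 to 5.32), both with intervals that include no change. Hoxd3 and Hoxd4 share 388 exon bases on the same strand, so their few reads may be split between them. Hoxd10, Hoxd11 and Hoxd12 had 1 read each in KO-labelled libraries, and 0, 2 and 0 in WT libraries.

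Promoters were searched for CACGTG, the E-box that BMAL1 and CLOCK bind, which reads the same on both strands. RefSeq (GRCm38.p6) gave 24 windows, from 250 bases before to 50 after the start, for 22 Hox genes. The letters stood in 5 of the 10 HoxD windows and in 0 of the 10 HoxA, 3 HoxB and 1 HoxC windows, beside 7.15% of 32851 windows of the same length. The windows with the letters thus belonged to genes with at most 12 reads in KO-labelled and 46 in WT libraries, and nothing about binding follows from a match or its absence.

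Seen by paralog group, all 3 genes of group 5 rose, beside 36.2% higher and 34.9% lower over all tested genes. Group 5 summed to 4156, 3831 and 4376 in KO-labelled libraries, against 1851, 1528 and 1636 in WT libraries, a ratio of 2.47. Group 6 summed to 2580.2, 2658 and 2647 in KO-labelled libraries, against 924, 851 and 857 in WT libraries, a ratio of 3.00, with Hoxb6 and Hoxc6 called and Hoxa6 not. Group 4 split, with Hoxc4 higher, Hoxb4 lower and Hoxa4 not called. Group 8 split as well, with Hoxc8 higher and Hoxb8 slightly lower. Group 9 summed to 1049, 1023 and 1122 in KO-labelled libraries, against 2095, 2154 and 2031 in WT libraries, a ratio of 0.509, with Hoxa9 and Hoxb9 lower and Hoxc9 not called. Hoxb9 held most of those counts under both labels. In counts per kb of transcript, Hoxc6 ranked 2nd of the 39 in KO-labelled libraries (879.9) and 13th in WT libraries (161). Hoxb9 ranked 8th in KO-labelled libraries (379.7) and 1st in WT libraries (767). Hoxb4 ranked 16th in KO-labelled libraries (220.1) and 5th in WT libraries (579).

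Other transcripts of the loci were few. Of 14 further table genes lying inside the clusters, 5 were tested, 3 were higher, 2 were not called and 7 had no read. Of all tested genes 36.2% were higher. Each of the 3, Gm53, Mir196a-1 and Hoxaas3, passed the filter only through KO-labelled libraries, where it was high. A longer list of 21 named cluster transcripts had 10 in the table, of which the 2 tested, Mir196a-1 and Hoxaas3, were higher. Hoxaas3, an antisense RNA that crosses Hoxa5 and Hoxa6, had 25.5, 27.6 and 24.0 in KO-labelled libraries, against 3.67, 10.8 and 7.37 in WT libraries (3.53-fold, log2 difference 1.79, SE 0.42, adjusted p = 0.00554). Mira, a noncoding RNA next to Hoxa7, had 223, 237 and 223 in KO-labelled libraries, against 271, 281 and 268 in WT libraries and was not called (adjusted p = 0.0627). It was called lower under TMM scaling (adjusted p = 0.0316) and total-count scaling (0.0241), with edgeR (0.0487) and with voom (0.0384). The noncoding RNA 5730596B20Rik, in HoxA, had 78.5, 62.3 and 91.4 in KO-labelled libraries, against 55.9, 74.6 and 60.8 in WT libraries (adjusted p = 0.31). Hotair, a noncoding RNA of HoxC, had no read.

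Outside the clusters, the nearest protein-coding genes did not share 1 direction. Next to HoxA, Skap2, an adaptor protein gene, was lower (log2 difference -0.54, SE 0.07, adjusted p = 0.000206). Skap1, beyond the 3′ end of HoxB and a related adaptor of T cells, was higher, at 40.8, 43.2 and 41.1 in KO-labelled libraries, against 12.8, 9.95 and 17.5 in WT libraries (log2 difference 1.60, SE 0.30, adjusted p = 0.00184). Calcoco1, a coactivator gene on the 5′ side of HoxC, was lower (log2 difference -1.15, SE 0.09, adjusted p = 1.4e-05). Smug1, a DNA repair gene on its 3′ side, was not called (adjusted p = 0.754). Mtx2, a mitochondrial import gene beyond the 3′ end of HoxD, was higher (log2 difference 0.44, SE 0.11, adjusted p = 0.00851). Evx1 and Evx2, homeobox genes at the 5′ ends of HoxA and HoxD, had 2 and 3 reads in all. With the 3 Cdx genes, regulators of Hox genes in the embryo, they made a list of 5 of which none passed the filter.

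Of 9 genes for cofactors of HOX proteins, all were tested, 3 were higher, 4 lower and 2 not called, beside 71.1% of all tested genes called in either direction. Meis1, a cofactor of posterior HOX proteins, had 826, 741 and 703 in KO-labelled libraries, against 3040.3, 3679 and 3484 in WT libraries. It fell 4.5-fold (log2 difference -2.17, SE 0.10, adjusted p = 8.37e-07). Meis2, its close relative, had 4227, 4337 and 3860.0 in KO-labelled libraries, against 1400.5, 1474 and 1693 in WT libraries. It rose 2.72-fold (log2 difference 1.45, SE 0.09, adjusted p = 4.42e-06), so Meis2 had more counts than Meis1 in all 3 KO-labelled libraries and fewer in all 3 WT libraries, with transcript length not allowed for. Pbx4 had 86.6, 55.2 and 93.7 in KO-labelled libraries, against 235, 231 and 220.1 in WT libraries, and was 2.91-fold lower (log2 difference -1.57, SE 0.22, adjusted p = 0.000386). Pbx3 had 770.4, 675 and 635 in KO-labelled libraries, against 349, 346 and 389.6 in WT libraries, and was 1.92-fold higher (log2 difference 0.94, SE 0.11, adjusted p = 0.000141).

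Of 31 Polycomb genes, 5 were higher, 18 lower and 8 not called, with a median log2 difference of -0.31, beside 36.2% higher, 34.9% lower and a median of -0.01 over all tested genes. Pcgf2, which encodes the subunit MEL18 of the complex that ubiquitinates histone H2A, had 833, 836 and 842 in KO-labelled libraries, against 1780.2, 2132 and 1803 in WT libraries (2.28-fold lower, log2 difference -1.18, SE 0.09, adjusted p = 1.13e-05). Pcgf6, for the same place in another form of that complex, had 338, 311 and 327 in KO-labelled libraries, against 763, 701 and 672 in WT libraries (2.19-fold lower, log2 difference -1.13, SE 0.09, adjusted p = 2.54e-05). Phc1, a polyhomeotic subunit, had 926, 1023 and 1021 in KO-labelled libraries, against 1762, 2334 and 2001 in WT libraries (2.05-fold lower, log2 difference -1.03, SE 0.11, adjusted p = 8.45e-05). Of 15 trithorax-type methyltransferase and H3K27 demethylase genes, 2 were higher, 6 lower and 7 not called, with a median of -0.18, beside the same background. Kdm6b, a demethylase of the Polycomb mark, had 1334, 1441 and 1405 in KO-labelled libraries, against 2613, 4210.1 and 3959 in WT libraries (2.58-fold lower, log2 difference -1.34, SE 0.17, adjusted p = 0.000209). Dpy30 and Kmt2d, a shared subunit and a methyltransferase, were 1.54-fold and 1.56-fold lower (adjusted p = 0.00708 and 0.0108, limma). Setd1b, another methyltransferase, was 1.36-fold higher (adjusted p = 0.0178, limma), a call that was lost without KO-labelled library 2 (adjusted p = 0.0594). Whether any of these genes bears on the Hox values was not tested.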

How the data were processed

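The authors deposited 1 table of normalized read counts, a non-negative signal for 27179 genes by NCBI Gene ID in 6 libraries made from 1.0 µg of total RNA with a stranded mRNA kit, per the labels. The submitters' processing notes name Trimmomatic, HISAT2, featureCounts and mm10 with no versions. Neither annotation nor strand setting is given in the sources used here. Every deposited signal was a whole read number times a library step (100% of values within 0.01), and the implied factors equalled median-ratio size factors, which assume that most genes do not differ. Recovered totals were 32503525 to 38074293 reads in libraries labelled Bmal1 KO and 39129037 to 44657471 in WT libraries. All 6 carry the same batch label. No pair of replicates agreed within sampling noise (chi-square per degree of freedom 10.6 to 76.4).

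The test was limma 3.58.1 in R 4.3.3 (eBayes with trend) on log2(normalized count + 1), group as the only term, over genes with at least 10 counts in at least 3 libraries, with Benjamini-Hochberg adjustment over 16086 genes and a threshold of 0.05. Every adjusted p is from this fit unless another is named. Differences are labelled KO minus WT on the log2(count + 1) scale, which makes changes of low genes look smaller; folds are ratios of group means of normalized counts. Groups with under 10 reads got exact 95% counting intervals, and a group of 0 reads a floor of 3 reads over its libraries. Intervals and floors cover counting error only, and a floor only that of the group with 0 reads. The fit was tested on simulated data in which only 200 genes were changed. In the real data 71.1% of tested genes were called, so that test does not show how the fit behaves here. edgeR 4.0.16 on recovered reads, which called 11479 genes, DESeq2 1.42.0, voom, other scalings, filters and pseudocounts, a replicate block and each library left out were alternatives. Of the Gene IDs, 25275 matched RefSeq (GRCm38.p6), which gave cluster coordinates, counted from 1. Transcripts were from GENCODE for the same build, which gave the homeoboxes and untranslated regions.

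Members and gene lists were chosen with earlier results of these data known. Hox genes are named in cluster order, and of other lists up to 4 members past the threshold with the largest differences and a mean of at least 50 are named, with all tested cluster transcripts of the list and the nearest flanking genes. Some items this rule takes, with their sequences, are not reported here. Arntl, Xist, Gm53, Mira, 5730596B20Rik, Pitx1, Agr2, Cd69 and the B-lymphoid list fall outside that rule and were chosen after values had been seen.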

Additional observations from a re-analysis of the deposited data

How the results depend on the processing

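The counts of Hox genes called kept within 1.5 times of 9 higher and 7 lower under every alternative run. Leaving out each library in turn gave 8 to 10 higher, 6 to 7 lower and 10283 to 11692 of all tested genes called. Without the filter, 9 of 36 Hox genes were lower, beside 5779 of all 21475 genes tested in that run. Of these 9 Hox genes, 3 were below the filter. They were Hoxa13 (log2 difference -2.97, adjusted p = 0.000417, limma), Hoxd8 (-1.86, adjusted p = 0.00587) and Hoxd9 (-1.38, adjusted p = 0.0388). Hoxd9 rested on 1 read in KO-labelled libraries against 8 in WT libraries. The counting interval of its fold, 0.853 to 282, includes no change. Another scaling moved the median of all genes by less than 0.1 on the log2 scale. The labels do not say whether same-numbered libraries were paired. Same-numbered libraries correlated by -0.0045, 0.0258 and 0.0839, and differently numbered ones by -0.131 to 0.0939. With so few libraries these values cannot exclude a pairing. With the number as a replicate block, 9 Hox genes were higher, 6 lower and 11556 of all genes called. Over 25 Hox genes, 389 recomputed values kept direction and call, 14 lost and 4 gained a call and 16 turned round.

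Each reversal was in a gene that was not called, and the cause was not tested. The log2 difference of Hoxa7 became -0.054 with TMM, -0.067 with total-count scaling, -0.030 with edgeR, -0.021 with voom and -0.047 to 0.11 with a library left out. With a library left out, Hoxc9 read -0.31 to 0.19, Hoxc13 -0.17 to 1.03, Hoxc10 -1.44 to 0.65, Smug1 -0.069 to 0.021 and Pitx1 -0.22 to 1.16. Hoxc10 was 0.57 with edgeR and 0.59 with DESeq2. Smug1 was 0.018 with upper-quartile scaling. The call of Hoxb8 was also lost under upper-quartile scaling, without the filter, with the block and with DESeq2, and that of Hoxa2 under total-count scaling. Hoxa4 gained a call under upper-quartile scaling and Hoxb3 under total-count scaling.

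Depth limits the HoxD genes, Hoxa11, Hoxa13, Hoxc11 and Hoxc12, which were tested only without the filter or had no read.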
